A study of Mus musculus with 8 samples.

Results

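The 10 genes described here serve the clearance of dying cells and the signaling of TREM receptors in macrophages: the TAM receptors Mertk, Axl and Tyro3, the bridging ligands Gas6, Pros1 and Mfge8, the TREM receptors Trem1, Trem2 and Trem3, and the adaptor Tyrobp. They were listed by name, and all 10 were found among the 22173 gene symbols of the count tables. They were followed through 8 RNA-seq libraries from cells of wild-type mice. Bone marrow-derived macrophages (BMDMs) were grown for 7 days in medium with L929 supernatant, a source of CSF-1. They were kept as M0 macrophages, or given for 48 h either LPS (100 ng/ml) with IFN-γ (20 ng/ml), the M1 macrophages, or IL-4 (20 ng/ml), the M2 macrophages, and each state was also prepared together with G-1 (10 μmol/L), an agonist of the estrogen receptor GPER1. The M0+G-1 macrophages had G-1 alone for 48 h. No source used here says whether the M0 macrophages were kept for these further 48 h. Time in culture therefore cannot be told apart from G-1 in the M0 pair. Nor can it be told apart from macrophage state in M1 or IL-4 over M0. Primary tubular epithelial cells (TECs) of the kidney were co-cultured for 24 h in trans-wells with M1 macrophages (TEC) or with M1 macrophages that had received G-1 (TEC+G-1). The macrophages were rinsed before the co-culture, so the TECs were kept beside treated macrophages and were given no G-1 themselves. G-1 was dissolved in DMSO, and no vehicle is named for the libraries without it. No source used here states the age or sex of the mice behind these cells. The paper's limitations call for the use of female macrophages, without naming the sex that was used.

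In each of the 8 groups 3 samples were pooled into 1 library, so no spread between cultures or animals is left, and each fold below compares 2 libraries. Total counts ran from 35027179 to 40671596. Levels are given as CPM, the counts scaled to the total of the library, or as TPM, which also takes transcript length into account, where genes are compared with each other. Folds were taken after TMM scaling and called measured where the higher of both counts reached 20. Each comes with the exact 95% binomial interval of its counts. This interval covers counting error only, since each group is 1 library, and it treats reads as independent, which they are not. The methods list each pair as its own sequencing set, so macrophage state and set cannot be told apart. The M1 libraries carried the LPS and IFN-γ response, with a summed CPM of its 10 markers of 8768 in M1 and 2654 in M1+G-1 against 250 in M0. Il1b had the most counts of them in M1, 185721. Of the 10 markers 8 were higher by 2-fold or more in M1 than in M0 and 0 lower. The others were Cxcl9, with 25 counts against 19, and Irf1, with 2391 against 3666. The library labelled IL-4 did not carry the usual IL-4 response: it had 7 counts of Arg1, 0 of Retnla, 0 of Ccl17 and 14 of Mgl2, against 649 counts of Mgl2 in M0, although Mrc1 stood at 188110 against 83675. It is therefore called the IL-4 library, by its label. In the M1 pair, folds followed transcript length (Spearman's rho -0.57 across genes). So they did in the TEC pair (-0.60) and in M1+G-1 over M0+G-1 (-0.475). Values with the running trend over length and GC content subtracted are added where they matter.

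Efferocytosis is the engulfment of apoptotic cells by phagocytes. The TAM receptors are receptor tyrosine kinases that do not touch the dying cell themselves: GAS6 and protein S, the product of Pros1, bind phosphatidylserine on its surface with one end and the receptor with the other, while MFG-E8, the product of Mfge8, bridges phosphatidylserine to αv integrins. TAM signaling also dampens Toll-like receptor and interferon responses. The TREM receptors belong to the immunoglobulin superfamily and have no signaling tail of their own: they pair with the ITAM adaptor encoded by Tyrobp. TREM-1 amplifies inflammatory responses to microbial products, and TREM-2 binds lipids and lipoproteins and is known from phagocytic and lipid-laden macrophages.

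Across the 8 libraries the 10 genes fell into different patterns, which the plot of their levels shows on a common axis. Mertk, Gas6, Trem2 and Tyrobp were abundant in the M0 and IL-4 libraries and lower in the M1 library, Trem1 and Trem3 were lowest in the M0 libraries among the macrophages, Trem3 highest in M1 and Trem1 highest in M1 and IL-4+G-1, Mfge8 was higher in the library with G-1 of each macrophage pair, and Axl and Tyro3 stood highest in the TECs. In bulk RNA, fewer cells that express a gene and less RNA per cell cannot be told apart.

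**Figure D1:**
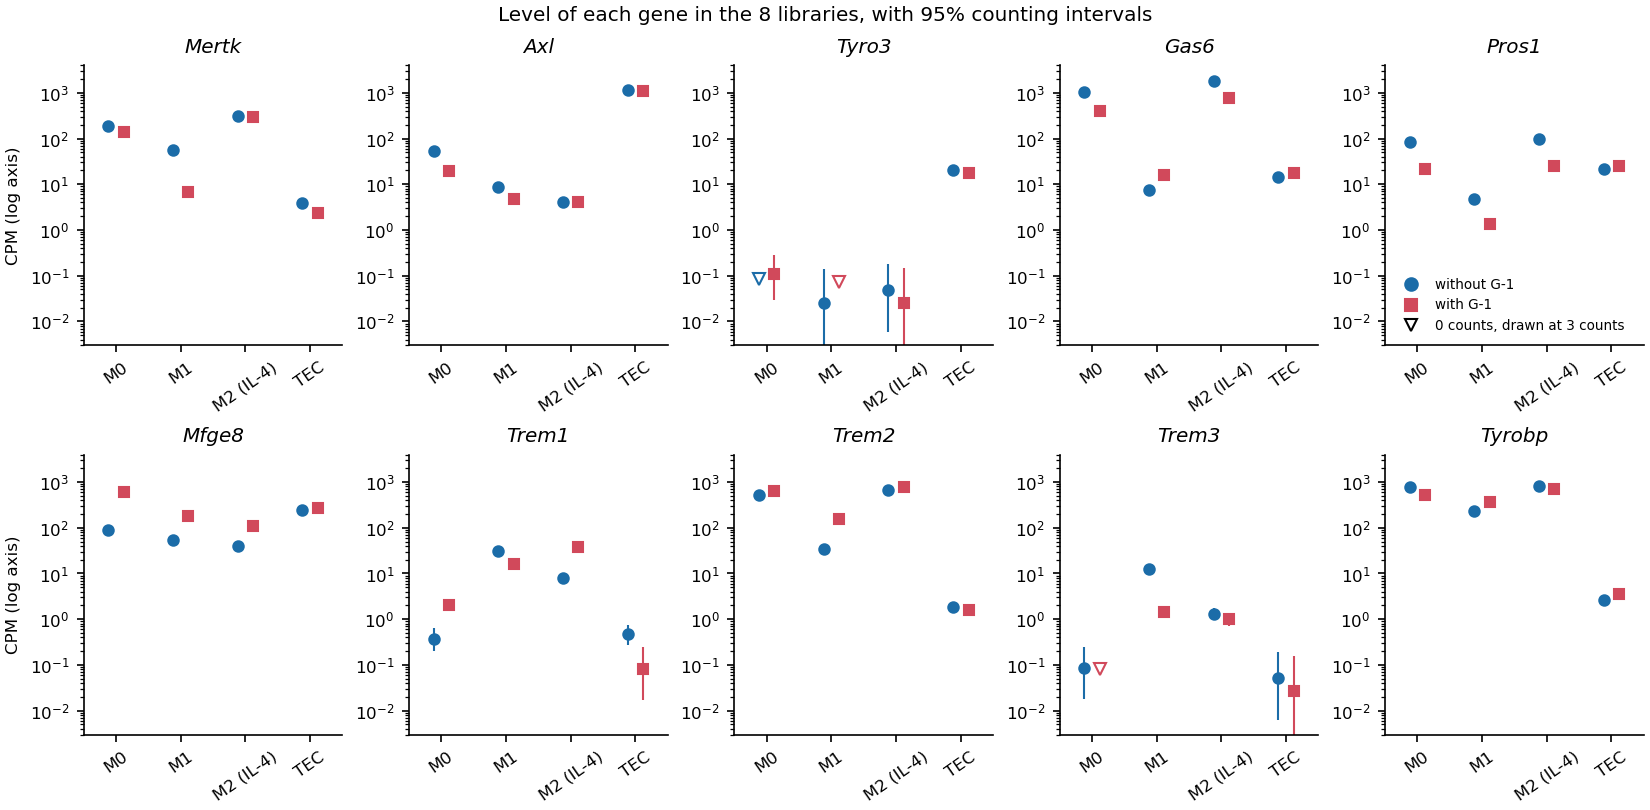
Level of each of the 10 genes in the 8 libraries, in CPM on a log axis, without G-1 (circles) and with G-1 (squares). Bars are 95% counting intervals, mostly hidden by the symbols, and open triangles mark 0 counts, drawn at the level of 3 counts. Mfge8 stands at 88.2 CPM in the M0 and 592 in the M0+G-1 library, and Axl reaches 1176 CPM in the TEC library.

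With G-1, 2 of the 8 members measured in the M0 pair were higher by 2-fold or more and 3 lower, beside 24.8% of all 11252 genes past 2-fold in either direction. In the M1 pair 3 of 9 were higher and 3 lower, beside 21.6% of all genes (9.44% higher and 12.1% lower). With the length and GC trend subtracted, 3 and 3 members were past 2-fold in the M1 pair, Gas6 at the line itself, and the share of all genes was 13.4% (5.16% higher and 8.24% lower). In the IL-4 pair 2 of 9 were higher and 2 lower, beside 13.7% (5.95% higher and 7.78% lower). In the TEC pair 0 of 8 were past 2-fold, beside 4.22% (1.39% higher and 2.82% lower), or 1 member (Trem1) with no minimum count. In M1 over M0, 2 of 9 members were higher and 6 lower, beside 34.2% of all genes (16.8% higher and 17.4% lower). The numbers in M1+G-1 over M0+G-1 were also 2 and 6, beside 37.4% (17.7% higher and 19.7% lower). With the length and GC trend subtracted they were 2 and 7, beside 29.2% (13.4% higher and 15.8% lower). In IL-4 over M0, 2 of 9 were higher and 2 lower, beside 14.3% (7.7% higher and 6.64% lower), and in IL-4+G-1 over M0+G-1 again 2 and 2, beside 12.8% (6.7% higher and 6.11% lower). These comparisons share libraries: the M0 library is the denominator of 3 of them, so the counts are not separate evidence. Tyro3 was not measured in any macrophage pair, with at most 4 counts.

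**Figure D2:**
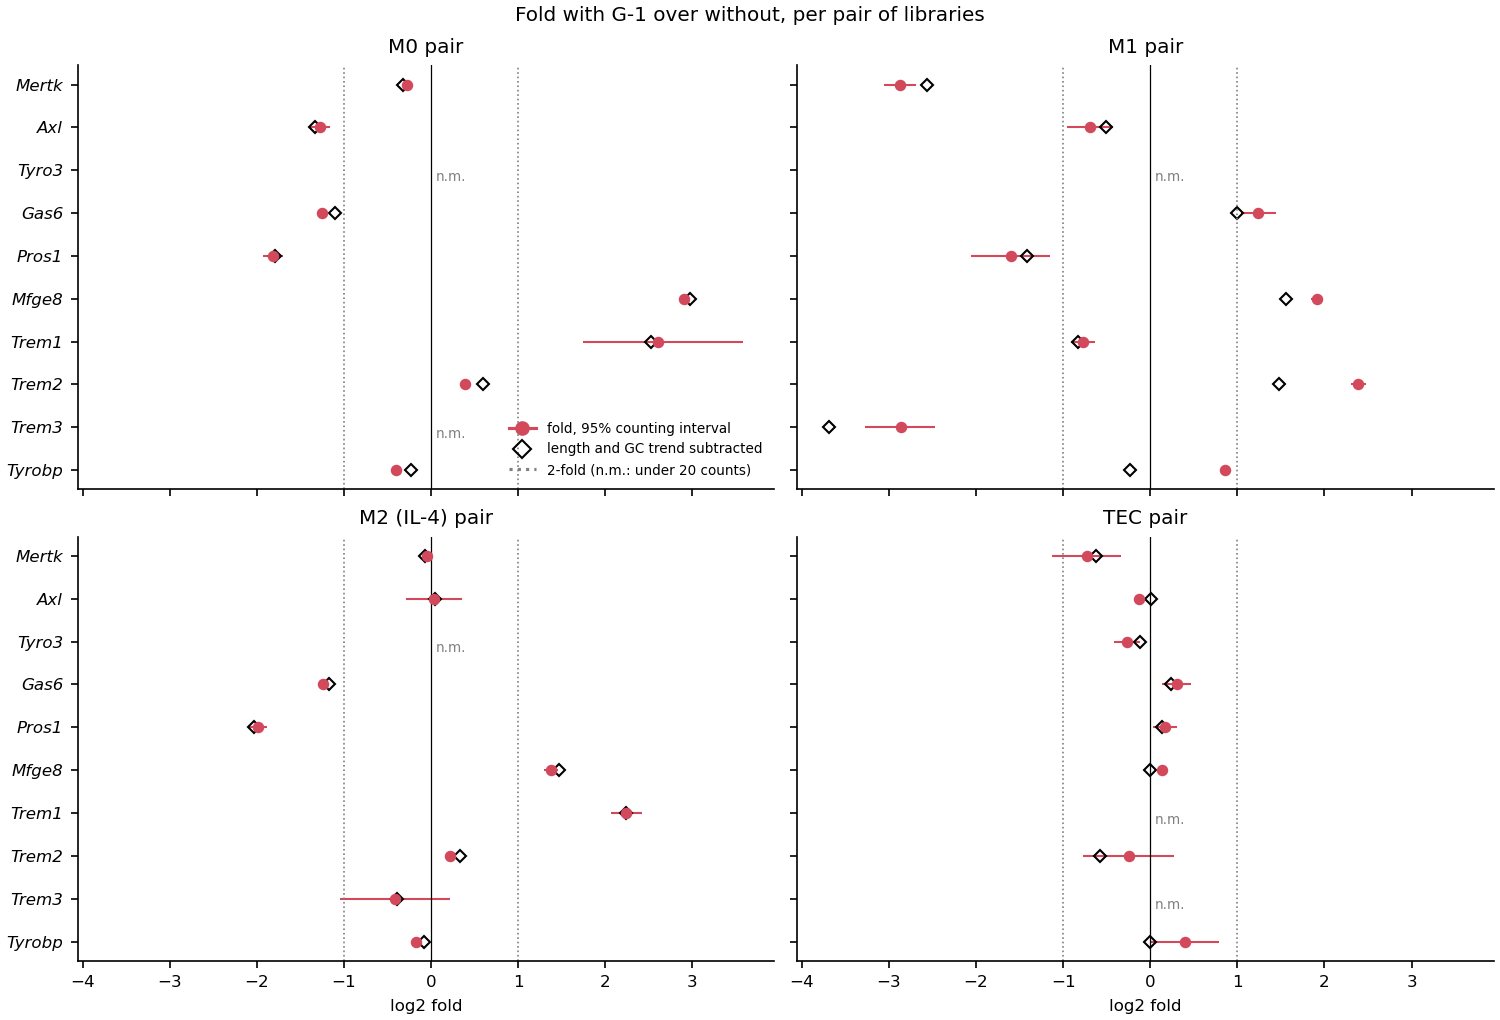
Log2 fold with G-1 over without for each gene in the 4 pairs of libraries. Filled circles carry the 95% counting interval, open diamonds the value after subtraction of the length and GC trend, dotted lines mark 2-fold, and n.m. marks genes under 20 counts in both libraries. Pros1 lies left of the lower line and Mfge8 right of the upper line in all 3 macrophage pairs, while Gas6 is lower in the M0 and IL-4 pairs and higher in the M1 pair.

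Mertk (Entrez gene 17289, chromosome 2 of GRCm38.p6 from 128698915 to 128803162) encodes the main engulfment receptor of resting macrophages. It had 191 CPM in M0, 141.5 in M0+G-1, 57.3 in M1, 6.81 in M1+G-1, 303 in IL-4, 296 in IL-4+G-1, 3.85 in TEC and 2.34 in TEC+G-1. The IL-4 pair stood highest, with overlapping counting intervals (298 to 308.5 and 291 to 301.5 CPM), and the M1+G-1 library stood lowest of the macrophages. With G-1, Mertk was 7.32-fold lower in the M1 pair (6.45 to 8.32, from 2246 to 274 counts), but only 1.21-fold lower in the M0 pair and 1.03-fold lower in the IL-4 pair. Subtraction of the length and GC trend left it 5.89-fold lower in the M1 pair. It was 2.996-fold lower in M1 than in M0 (2.86 to 3.14). In M1+G-1 it was 18.0-fold lower than in M0+G-1 (15.9 to 20.4), or 14.8-fold with the trend subtracted. It was 1.47-fold higher in the IL-4 library than in M0 (1.42 to 1.51) and 1.71-fold higher in IL-4+G-1 than in M0+G-1.

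Axl (Entrez gene 26362, chromosome 7 from 25756500 to 25788924), a TAM receptor that responds to GAS6 and is known as a receptor of stressed tissue, had 54.0 CPM in M0, 19.97 in M0+G-1, 8.64 in M1, 4.65 in M1+G-1, 4.01 in IL-4, 4.14 in IL-4+G-1, 1176 in TEC and 1088 in TEC+G-1. The M0 library was the highest of the macrophages, and the intervals of M1+G-1 and both IL-4 libraries overlapped. With G-1 it was 2.43-fold lower in the M0 pair (2.23 to 2.65), 1.62-fold lower in the M1 pair (1.35 to 1.94) and 1.02-fold higher in the IL-4 pair, with an interval from 0.818 to 1.28. It was 5.63-fold lower in M1 than in M0 and 14.6-fold lower in IL-4 than in M0. Under G-1 these folds were 3.72 and 5.90, or 2.99 and 5.14 with the length and GC trend subtracted. Among the macrophage libraries Mertk made up 59.2% to 98.7% of the summed TPM of the TAM receptors and was above Axl in every one, least so in M1+G-1, where both were low (3.05 and 2.10 TPM). Tyro3 (Entrez gene 22174, chromosome 2 from 119797740 to 119818104), the TAM receptor best known from the nervous system, had 0 to 4 counts per macrophage library.

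Gas6 (Entrez gene 14456, chromosome 8 from 13465374 to 13494535) encodes the vitamin K-dependent ligand of all TAM receptors. It had 1052 CPM in M0, 397 in M0+G-1, 7.65 in M1, 15.7 in M1+G-1, 1837 in IL-4, 784.5 in IL-4+G-1, 14.2 in TEC and 17.7 in TEC+G-1. It ranked 72 by counts among all genes in M0 and 31 in IL-4, and both M1 libraries stood far below the other macrophages. With G-1 it was 2.38-fold lower in the M0 pair (2.33 to 2.43) and 2.36-fold lower in the IL-4 pair (2.33 to 2.39), and 2.36-fold higher in the M1 pair (2.06 to 2.72, from 300 to 633 counts). The last fold lay at the 2-fold line, at 2.0, with the length and GC trend subtracted. Gas6 was 124-fold lower in M1 than in M0 (111 to 139) and 21.8-fold lower in M1+G-1 than in M0+G-1. Against M0 it was 1.61-fold higher in IL-4. In the annotation Gas6 overlaps Tmem255b, which had 912, 427, 8, 11, 1117 and 424 counts in the macrophage libraries in the same order. No source used here says whether counting used strand, so reads of these neighbors may not be separable.

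Pros1 (Entrez gene 19128, chromosome 16 from 62854307 to 62929346) encodes protein S, an anticoagulant plasma protein that is also a ligand of MERTK and TYRO3. It had 84.7 CPM in M0, 21.7 in M0+G-1, 4.74 in M1, 1.37 in M1+G-1, 99.7 in IL-4, 25.3 in IL-4+G-1, 21.8 in TEC and 24.8 in TEC+G-1. Each macrophage library with G-1 was below its partner without. Pros1 was 3.51-fold lower with G-1 in the M0 pair (3.24 to 3.80), 3.02-fold lower in the M1 pair (2.22 to 4.16, from 186 to 55 counts) and 3.97-fold lower in the IL-4 pair (3.70 to 4.26). It was 16.1-fold lower in M1 than in M0 (13.9 to 18.8) and 13.7-fold lower in M1+G-1 than in M0+G-1, while it was 1.08-fold higher in IL-4 than in M0 and 1.05-fold lower in IL-4+G-1 than in M0+G-1. The direction of the former turned with the length and GC trend subtracted, and that of the latter with total counts as the scaling.

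Mfge8 (Entrez gene 17304, chromosome 7 from 79133768 to 79149060) encodes MFG-E8, the bridge to αv integrins. It had 88.2 CPM in M0, 592 in M0+G-1, 55.2 in M1, 181 in M1+G-1, 40.7 in IL-4, 107 in IL-4+G-1, 246 in TEC and 272 in TEC+G-1. The 3 macrophage libraries with G-1 were above the 3 without, with no overlap. With G-1 it was 7.48-fold higher in the M0 pair (7.20 to 7.77), 3.78-fold higher in the M1 pair (3.598 to 3.96, or 2.95 with the trend subtracted) and 2.60-fold higher in the IL-4 pair (2.46 to 2.76). Against M0 it was 1.44-fold lower in M1 and 2.36-fold lower in IL-4. Under G-1 these folds were 2.83 and 6.78, or 3.52 and 5.75 with the trend subtracted.

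The leading ligand differed between the libraries, as the plot of shares of summed TPM shows. Gas6 made up 86.0% of their summed TPM in M0, 93.6% in IL-4 and 84.2% in IL-4+G-1. Mfge8 made up 63.2% in M0+G-1, 85.4% in M1 and 92.8% in M1+G-1. The sum itself was 1106 TPM in M0 and 1082 in M0+G-1, and 70.8 in M1 and 177 in M1+G-1.

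**Figure D3:**
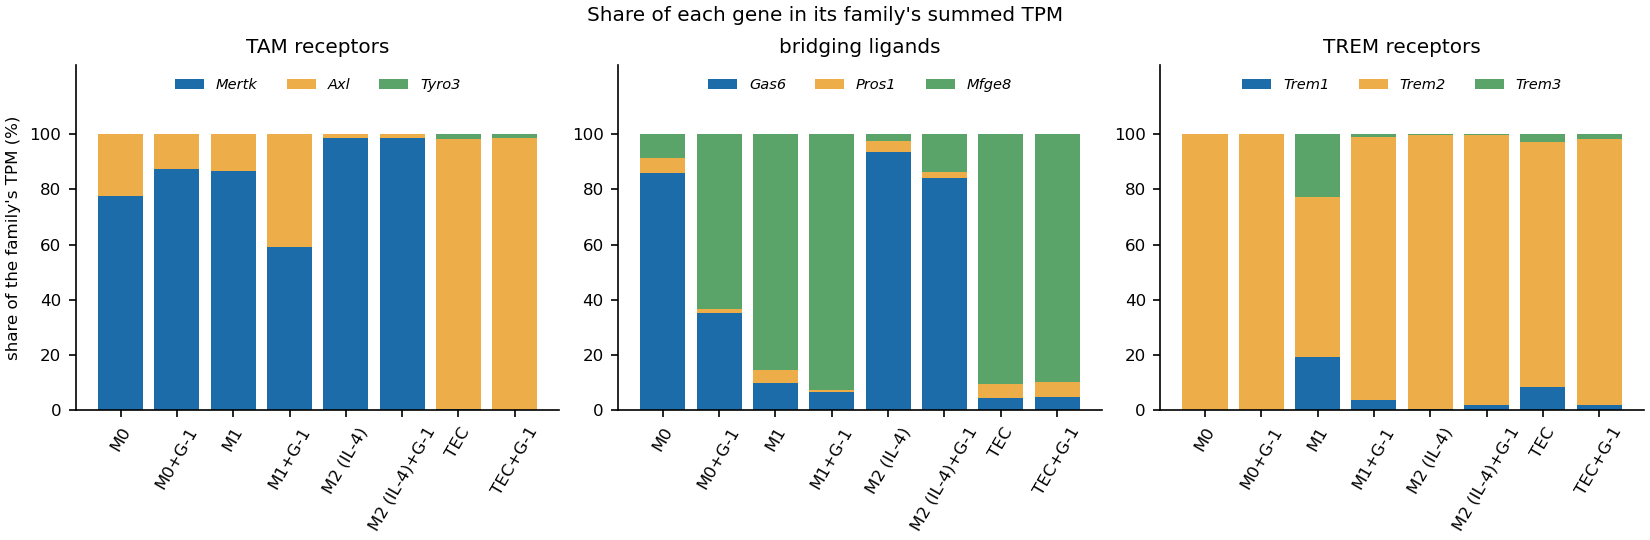
Share of each gene in the summed TPM of its family (percent) in the 8 libraries, for the TAM receptors, the bridging ligands and the TREM receptors. Mertk leads the TAM receptors in every macrophage library and Axl in both TEC libraries (98.0% and 98.3%), the leading ligand is Gas6 in M0 and Mfge8 in M0+G-1, and Trem1 and Trem3 have their highest shares among the macrophage libraries in M1 (19.4% and 22.9%).

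Since Pros1 was lower and Mfge8 higher with G-1 in all 3 macrophage pairs, their promoters from RefSeq on GRCm38.p6 are shown, from 250 bases before to 50 after the start site, 5′ to 3′ on the strand of the gene. Capitals mark matches, on either strand, of 6 motifs that were searched in 32851 such windows: the ETS motif GAGGAA, the AP-1 motif TGANTCA, the GAS motif TTCNNNGAA, the STAT6 motif, the ISRE and the kappaB consensus. The shorter run GGAA alone was not counted as an ETS match. The first window lies at chr16:62854057-62854356 on the plus strand and the second at chr7:79149011-79149310 on the minus strand.
Pros1: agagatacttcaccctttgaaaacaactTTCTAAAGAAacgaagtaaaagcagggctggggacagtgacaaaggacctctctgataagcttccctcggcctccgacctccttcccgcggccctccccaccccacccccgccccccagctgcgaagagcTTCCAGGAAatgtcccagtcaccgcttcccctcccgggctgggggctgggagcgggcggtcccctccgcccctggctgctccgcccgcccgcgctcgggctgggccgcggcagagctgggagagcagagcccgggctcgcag
Mfge8: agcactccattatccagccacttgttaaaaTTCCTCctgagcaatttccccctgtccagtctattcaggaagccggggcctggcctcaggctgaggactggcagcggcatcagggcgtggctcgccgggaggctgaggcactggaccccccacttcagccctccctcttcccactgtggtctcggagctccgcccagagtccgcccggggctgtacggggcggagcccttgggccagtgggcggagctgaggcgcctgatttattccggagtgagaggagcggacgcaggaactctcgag
The Pros1 window held a STAT6 match starting at -222 and a GAS match at -92, and the Mfge8 window an ETS match at -220. Of all windows, 6.95% held a STAT6 match, 8.30% a GAS match and 28.3% an ETS match. Of the 10 members 8 had a window, and 4 of these held an ETS match, 2 a GAS match, 1 (Pros1) a STAT6 match, 1 (Tyro3) a kappaB match, 1 (Trem2) an AP-1 match and 0 an ISRE match, which 3.44% of all windows held. Of all windows 4.51% held a kappaB match. A match is a run of letters and was not tested as a binding site.

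The TREM genes lie on the same stretch of chromosome 17, with Trem1 and Trem3 closest together. Trem1 (Entrez gene 58217, from 48232713 to 48246927) had 0.371 CPM in M0, 2.03 in M0+G-1, 31.2 in M1, 15.9 in M1+G-1, 8.04 in IL-4, 38.3 in IL-4+G-1, 0.468 in TEC and 0.0826 in TEC+G-1. Trem1 encodes TREM-1, the amplifier of inflammatory signals. M1 and IL-4+G-1 were the highest libraries, and M0 held 13 counts. With G-1, Trem1 was 6.09-fold higher in the M0 pair (3.35 to 11.96) and 4.73-fold higher in the IL-4 pair (4.19 to 5.35), and 1.71-fold lower in the M1 pair (1.55 to 1.88). In M1 it stood 93.4-fold above M0 (54.4 to 176) and 9.07-fold higher in M1+G-1 than in M0+G-1 (7.13 to 11.7). In IL-4 over M0 it was 19.9-fold higher (11.5 to 37.8), and in IL-4+G-1 over M0+G-1 15.5-fold.

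Trem2 (Entrez gene 83433, from 48346401 to 48352276) encodes TREM-2, the lipid-binding receptor. It had 529 CPM in M0, 623 in M0+G-1, 33.9 in M1, 155 in M1+G-1, 663 in IL-4, 779 in IL-4+G-1, 1.85 in TEC and 1.57 in TEC+G-1. The M1 library was the lowest of the macrophages, and M1+G-1 lay between it and the others. With G-1 it was 5.24-fold higher in the M1 pair (4.94 to 5.57, from 1330 to 6224 counts), which was 2.78-fold with the length and GC trend subtracted, and 1.31-fold and 1.17-fold higher in the M0 and IL-4 pairs. Trem2 was 14.04-fold lower in M1 than in M0 (13.3 to 14.9) and 3.48-fold lower in M1+G-1 than in M0+G-1, or 6.79-fold with the trend subtracted.

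Trem3 (Entrez gene 58218, from 48247677 to 48258848), which codes for a TYROBP-coupled receptor in the mouse, had 3, 0, 481, 59, 54 and 39 counts in the 6 macrophage libraries in the order M0, M0+G-1, M1, M1+G-1, IL-4 and IL-4+G-1. M1 stood highest. With G-1 it was 7.28-fold lower in the M1 pair (5.54 to 9.70), or 12.9-fold with the trend subtracted, and 1.33-fold lower in the IL-4 pair, with an interval that covers no change (0.863 to 2.06). The ratio of M1 to M0 was 159 with an interval from 54.1 to 773, since M0 had 3 counts, and that of IL-4 to M0 was 14.3 (4.63 to 71.3). With the 0 counts of M0+G-1 set to a floor of 3, Trem3 was 20.9-fold higher in M1+G-1 and 10.2-fold higher in IL-4+G-1. The lower bounds of the 95% counting intervals were 16.5 and 7.89, and the folds with the trend subtracted were 10.6 and 8.66. In the annotation Trem1 and Trem3 overlap predicted genes, 3 and 2 of them, that have no counts of their own in these tables.

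The promoters of Trem1 (chr17:48232489-48232788) and Trem2 (chr17:48346151-48346450), both on the plus strand, are shown because in M1 over M0 Trem1 was higher and Trem2 lower. Capitals again mark matches of the 6 motifs.
Trem1: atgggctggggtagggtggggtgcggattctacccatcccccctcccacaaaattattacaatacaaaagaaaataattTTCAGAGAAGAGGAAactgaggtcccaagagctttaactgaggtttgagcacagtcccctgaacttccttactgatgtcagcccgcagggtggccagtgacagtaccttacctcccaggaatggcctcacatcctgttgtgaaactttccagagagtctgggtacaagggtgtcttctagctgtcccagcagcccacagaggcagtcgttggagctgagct
Trem2: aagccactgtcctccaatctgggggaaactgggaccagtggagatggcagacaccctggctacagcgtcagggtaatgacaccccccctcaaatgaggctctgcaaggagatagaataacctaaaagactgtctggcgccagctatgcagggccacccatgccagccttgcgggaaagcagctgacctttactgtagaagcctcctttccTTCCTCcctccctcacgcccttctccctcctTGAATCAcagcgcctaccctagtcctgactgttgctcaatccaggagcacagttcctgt
Both windows held an ETS match, at -162 in Trem1 and at -40 in Trem2. The Trem1 window also held a GAS match at -171, directly next to the ETS match, and the Trem2 window an AP-1 match at -9, a motif found in 7.81% of all windows.

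Tyrobp (Entrez gene 22177, chromosome 7 from 30413782 to 30417582), is the adaptor that carries the signal of the TREM receptors. It had 768 CPM in M0, 523 in M0+G-1, 232.5 in M1, 368 in M1+G-1, 804 in IL-4, 718 in IL-4+G-1, 2.65 in TEC and 3.52 in TEC+G-1. All 3 pairs with G-1 stayed within 2-fold: it was 1.32-fold lower in the M0 pair, 1.82-fold higher in the M1 pair and 1.13-fold lower in the IL-4 pair. Its transcript, at 597 bases, is the shortest of the 10, and in the M1 pair the direction turned with the length and GC trend subtracted, to 1.17-fold lower. It was 2.98-fold lower in M1 than in M0 and 1.23-fold lower in M1+G-1 than in M0+G-1, the latter 2.58-fold with the trend subtracted. In IL-4 over M0 it was 1.04-fold lower, and that direction turned with total counts or with the trend subtracted. Per length, Tyrobp exceeded the sum of the TREM receptors 1.53-fold to 7.22-fold in the macrophage libraries, most in M1, where Trem2 was low. In M1 Trem2 made up 57.8% of the TREM receptors, against 95.4% in M1+G-1 and 98.1% or more in the other macrophage libraries.

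**Figure D4:**
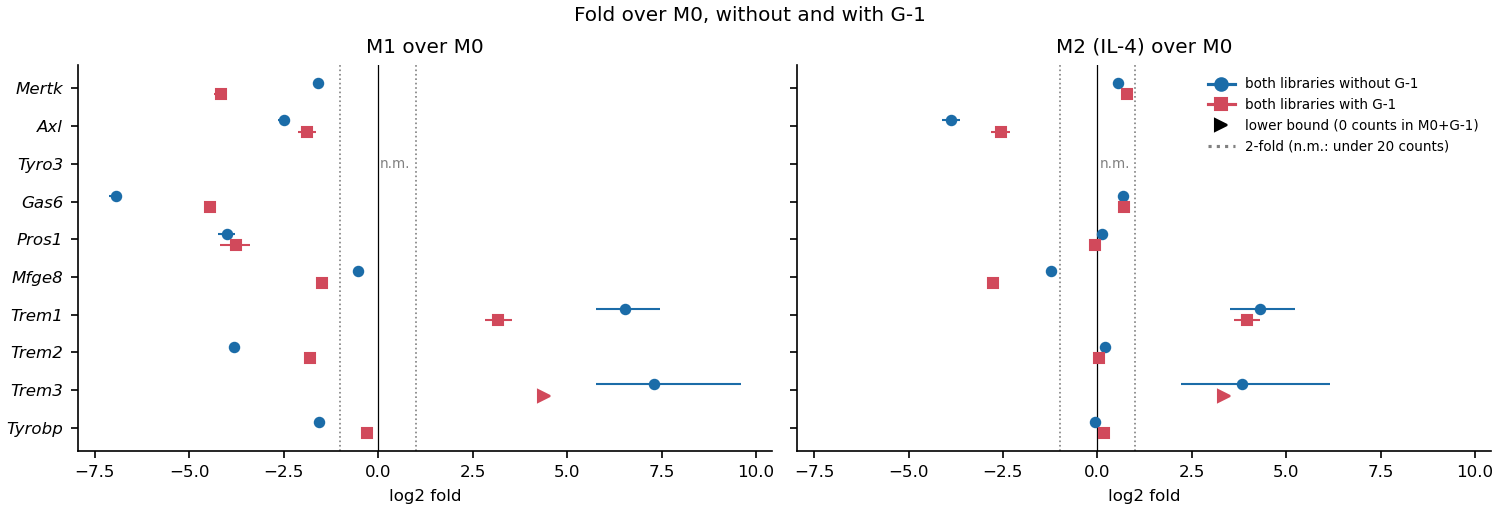
Log2 fold of M1 over M0 (left) and of the IL-4 library over M0 (right) for each gene, with both libraries without G-1 (circles) or both with G-1 (squares). Bars are 95% counting intervals, arrowheads are folds against 0 counts set to 3 (lower bound in the legend), and dotted lines mark 2-fold. Gas6 lies at -6.95 and Trem3 at 7.31 in M1 over M0 without G-1, and in the panel of IL-4 over M0 Axl and Mfge8 lie left of the lower 2-fold line.

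Over the 6 macrophage libraries, state and G-1 were tested together with edgeR's quasi-likelihood test, which takes the disagreement between states and between G-1 arms as its error (2 residual degrees of freedom). For G-1, 0 of 9 members passed an adjusted p of 0.05, beside 0.0% of 11921 genes, while 2 members and 1634 genes had an unadjusted p under 0.05. Pros1, lower in 3 of 3 pairs, had a log2 change of -1.83 ± 0.22 (SE) and an adjusted p of 0.115 in edgeR. Mfge8, higher in 3 of 3 pairs, had a log2 change of 2.04 ± 0.36 and an adjusted p of 0.146. DESeq2 called both genes, with adjusted p of 2.93e-08 and 7.57e-06. Without the M1 pair edgeR called 3 members, Pros1 (adjusted p = 0.0107), Mfge8 (0.0386) and Trem1 (0.0144, 2.36 on the log2 scale). Over all alternatives the adjusted p ran up to 0.211 for Pros1, 0.185 for Mfge8 and 1.0 for Trem1.

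For M1 against M0, in the same edgeR fit, 5 of 9 members passed, beside 9.9% of all genes. Pros1 fell by 3.88 on the log2 scale (SE 0.292, adjusted p = 0.00497), Gas6 fell by 5.49 (SE 0.83, 0.0203) and Axl fell by 2.21 (SE 0.404, 0.0297). Trem3 rose by 7.22 (SE 1.09, 0.0203) and Trem1 rose by 5.02 (SE 0.962, 0.0332), the fitted change of Trem3 resting on 3 and 0 counts in the M0 libraries and so on the prior count. Trem2 (-2.65, adjusted p = 0.0585) and Mertk (-2.62, 0.0848) did not pass, though both did in DESeq2 (5.1e-05 and 0.000875) and without the IL-4 pair (0.0197 and 0.02). Mfge8 and Tyrobp passed in no setting tried.

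For IL-4 against M0, 0 of 9 members passed in edgeR, beside 0.0% of all genes, with 4 members and 814 genes at an unadjusted p under 0.05. The 4 were Axl (-3.23 on the log2 scale, adjusted p = 0.226), Mfge8 (-2.03, 0.485), Trem1 (4.002, 0.488) and Trem3 (4.97, 0.487). DESeq2 called the same 4, with adjusted p from 4.07e-09 for Axl to 0.00561 for Trem3. Without the M1 pair edgeR called Trem1 alone (0.0227).

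The TEC libraries had a different set of these genes. Axl was the leading TAM receptor there: with 45219 counts in TEC and 39519 in TEC+G-1 it ranked 63 and 77 among all genes. Its level was 739 and 614 TPM, against 29.2 TPM in M0. Tyro3, nearly absent from the macrophages, had 798 and 632 counts. Mfge8 led the ligands with 246 and 272 CPM, and Pros1 had 21.8 and 24.8. Of another engulfment receptor, Havcr1, which encodes the injury marker KIM-1, the TEC libraries had 9525 and 9508 counts and the macrophage libraries at most 2 (it was chosen after its values were seen). Between the TEC libraries the folds of the 8 measured members ran from 1.66-fold lower (Mertk, 148 and 85 counts, 1.26 to 2.19) to 1.32-fold higher (Tyrobp, 102 and 128 counts, 1.01 to 1.73). Axl was 1.09-fold lower (1.08 to 1.11), Tyro3 1.20-fold lower and Gas6 1.24-fold higher, and the direction of Axl, Mfge8 and Tyrobp turned with the length and GC trend subtracted. Trem1, at 18 and 3 counts, was not measured.

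Macrophage genes were found at a low level in the TEC libraries. The CPM of 10 macrophage markers in TEC was a median of 1.22% of that in M1 (0.375% to 6.16%), and in TEC+G-1 0.765% of that in M1+G-1 (0.255% to 15.1%). Mertk stood at 6.72%, Trem2 at 5.45%, Tyrobp at 1.14% and Trem1 at 1.499% of M1. In TEC+G-1, Mertk stood at 34.4%, Trem2 at 1.02% and Tyrobp at 0.959% of M1+G-1. Adgre1, the gene of the macrophage marker F4/80, had 757 and 120 counts in TEC and TEC+G-1 and was 6.01-fold lower, and the part of such RNA in the folds of Mertk, Trem2 and Tyrobp between the TEC libraries was not tested. Of 12 tubular epithelial markers, 10 had at least 20 counts in both TEC libraries, with a summed CPM of 6498 and 7273. The macrophage libraries had a summed CPM of 0.228 to 3.93 of these. The TEC and TEC+G-1 libraries also held RNA of fibroblast markers (summed CPM 132 and 104.5) and endothelial markers (110 and 129). Col1a1 had 3246 and 2378 counts there, and Emcn 1228 and 1593. The part of such cells in the levels of Axl, Tyro3 and the ligands in the TEC libraries was not tested.

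Cell type markers differed between the macrophage libraries as well. Of the 12 macrophage markers themselves, 0 were higher and 7 lower with G-1 in the M0 pair (summed CPM 45550 and 16010), 1 higher and 4 lower in the M1 pair (21460 and 15030) and 0 higher and 5 lower in the IL-4 pair (49830 and 27000). The shares of all genes higher and lower were 12.2% and 12.6%, 9.44% and 12.1%, and 5.95% and 7.78%. Lyz2 had the most counts of these markers in M0, 954912, against 201537 in M0+G-1. The marker that was higher in the M1 pair was Cd68, 5.74-fold. The endothelial markers Vwf and Kdr had 831 and 145 counts in M0 against 8345 and 876 in M0+G-1, and 464 and 173 in IL-4 against 1173 and 1142 in IL-4+G-1. Pecam1, of the same list, went the other way, from 195 to 4 counts in the M0 pair and from 50 to 3 in the IL-4 pair. Of 8 endothelial markers, 3 were measured in each of these pairs, 2 higher and 1 lower. In the M1 pair 0 of 4 were higher and 2 lower. The part of these differences in the members' folds with G-1 was not tested. The summed CPM of 6 monocyte markers went from 1592 in M0 to 6.38 in M0+G-1 and from 1607 to 28.4 in the IL-4 pair, most of it F13a1, and from 48.8 to 13.8 in the M1 pair. Ly6c2, a marker of inflammatory monocytes, had 961 and 340 counts in M1 and M1+G-1 and at most 13 in the other macrophage libraries. Of 10 neutrophil markers, listed because neutrophils also express Trem1, Ly6g, Elane and Retnlg had 0 counts in the M0, M0+G-1, M1 and M1+G-1 libraries. Their summed CPM ran from 22.5 to 98.9 in the macrophage libraries, mostly Csf3r, and S100a8 had 874 and 514 counts in M1 and M1+G-1 against 62 and 40 in M0 and M0+G-1. Other neutrophil markers went the other way in M1 over M0: S100a9 had 25 counts against 100 and Ltf 0 against 102, and of 5 measured 2 were higher and 2 lower. The part of these cells in the levels of Trem1 and Trem3 was not tested. The fibroblast genes Dcn and Pdgfrb had 405 and 951 counts in M1 against 0 and 7 in M0, while Col1a1, Col1a2 and Col3a1 had 0 counts in M1.

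Around the 10 genes, 7 lists of related genes were read, as the plot of their folds shows. The genes known to be expressed with Trem2 in lipid-associated macrophages stood as follows with G-1. In the M0 pair 11 of 16 measured genes were higher by 2-fold or more and 2 lower (median log2 fold 1.60, against 0.00 over all genes, of which 12.2% were higher and 12.6% lower). In the IL-4 pair 9 of 17 were higher and 0 lower (median 1.19, against 5.95% and 7.78% of all genes). In the M1 pair 6 of 18 were higher and 2 lower (median 0.85, against 9.44% and 12.1%). With the length and GC trend subtracted these were 4 and 3 (median 0.42, against 5.16% and 8.24% of all genes). Itgax, an integrin of lipid-laden macrophages, was 9.45-fold higher in the M0 pair and 3.30-fold in the IL-4 pair, and 4.24-fold lower in the M1 pair, at 38 and 8 counts. Lgals3, which encodes galectin-3, was 4.56-fold higher in the M1 pair, or 2.77-fold with the trend subtracted, and 3.80-fold in the IL-4 pair. Apoe, a lipoprotein that TREM-2 binds, went the other way in the M0 pair, 8.12-fold lower (703566 and 82159 counts). In the edgeR fit for G-1, 0 of 18 passed, with 8 at an unadjusted p under 0.05. In that for M1, 2 rose (Csf1 and Ch25h, the latter from 2 counts in M0) and 3 fell (Clec7a, Lipa and Lpl).

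**Figure D5:**
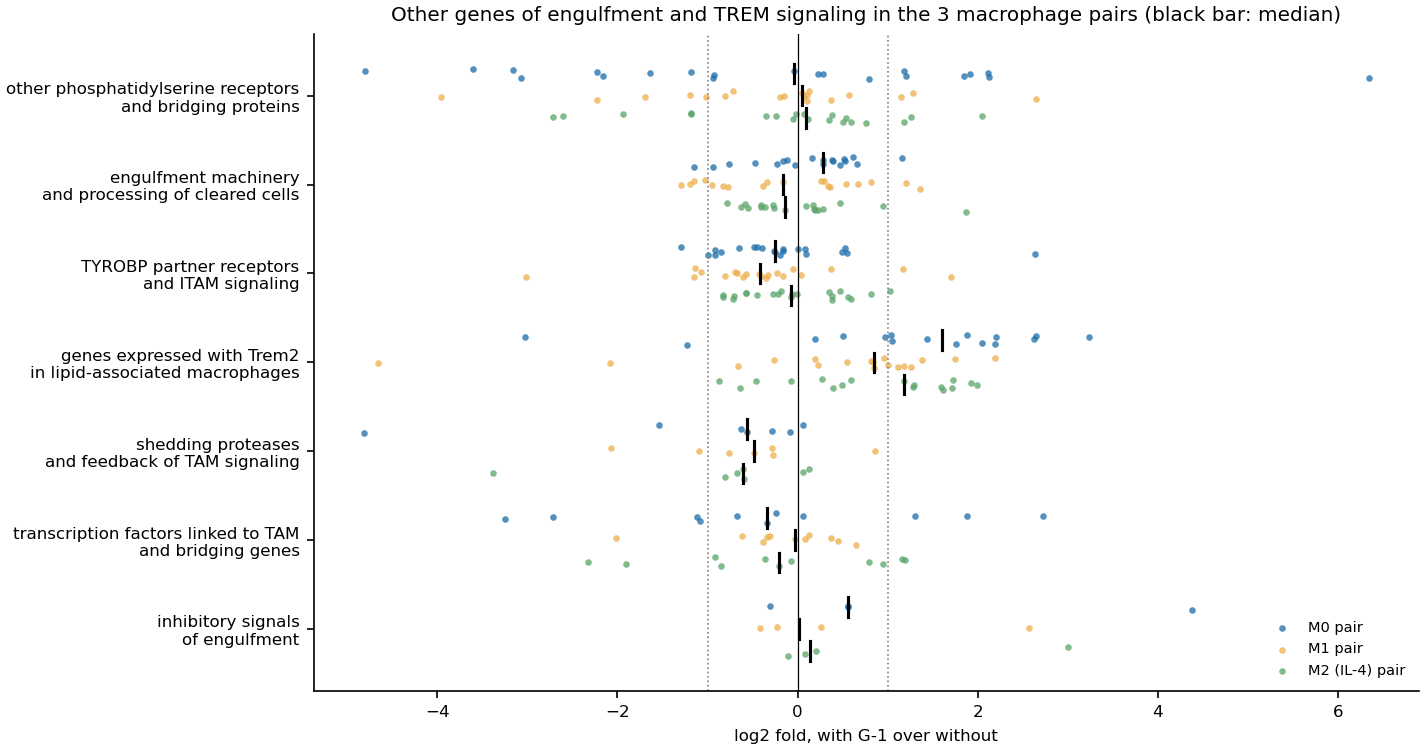
Log2 fold with G-1 over without for the measured genes of 7 lists, in the M0, M1 and IL-4 pairs. Each point is a gene, black bars are medians and dotted lines mark 2-fold. The genes expressed with Trem2 in lipid-associated macrophages have medians of 1.60, 0.85 and 1.19, and the other phosphatidylserine receptors spread to both sides.

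Other receptors and bridging proteins for phosphatidylserine spread in both directions with G-1. Of 21 measured 7 were higher and 8 lower in the M0 pair, beside 12.2% and 12.6% of all genes. In the M1 pair 3 of 19 were higher and 5 lower, beside 9.44% and 12.1%. With the length and GC trend subtracted these were 2 and 5, beside 5.16% and 8.24%. In the IL-4 pair 3 of 20 were higher and 5 lower, beside 5.95% and 7.78%. The medians were -0.04, 0.05 and 0.09 in the M0, M1 and IL-4 pairs. Itgb3, a subunit of the αv integrin that MFG-E8 binds, was 80.9-fold higher in the M0 pair (146 and 11198 counts) and 4.12-fold higher in the IL-4 pair. C1qa, a subunit of the complement opsonin C1q, was 12.2-fold lower in the M0 pair, and Stab1, a scavenger receptor for phosphatidylserine, was 6.08-fold lower in the IL-4 pair. Thbs1, which encodes the bridging protein thrombospondin-1, was 27.95-fold lower in the M0 pair and 15.5-fold lower in the M1 pair, the latter 10.2-fold with the trend subtracted. In M1 over M0, 12 of 21 were lower and 3 higher, beside 17.4% and 16.8% of all genes, with a median of -1.47. There Cd300a, an inhibitory phosphatidylserine receptor, was 54.9-fold lower and C1qb 34.5-fold lower. In the edgeR fit for M1, 7 of these 21 fell and 1, Cd300lf, rose, beside 4.92% and 4.97% of all genes.

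Of the shedding proteases and feedback genes of TAM signaling, Socs1 and Socs3, inhibitors of cytokine signaling, were 49.3-fold and 62.5-fold higher in M1 than in M0, and both rose in the edgeR fit for M1. With G-1, Socs3 was 28.1-fold lower in the M0 pair (15 and 444 counts), 2.13-fold lower in the M1 pair and 10.4-fold lower in the IL-4 pair. Of the transcription factors linked to TAM and bridging genes, Pparg and Maf fell in the edgeR fit for M1. Maf, a factor of resident macrophages that is known to drive C1q genes, was lower with G-1 in each pair, by 9.495-fold in M0, 4.06-fold in M1 (2.39-fold with the trend subtracted) and 3.73-fold in IL-4. Cd24a, which encodes a signal against engulfment, was higher with G-1 in each pair, 20.8-fold, 5.95-fold and 7.99-fold, while of 5 such genes 4 were measured and the other 3 stayed within 2-fold. In the edgeR fit for M1, Cd24a and Cd47 rose and Cd22 fell.

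Of 19 measured genes of engulfment and processing, 1 was higher and 1 lower with G-1 in the M0 pair, 2 and 4 in the M1 pair and 1 and 0 in the IL-4 pair, beside 12.2% and 12.6%, 9.44% and 12.1%, and 5.95% and 7.78% of all genes. In the M1 pair 0 were higher and 1 lower with the trend subtracted, beside 5.16% and 8.24% of all genes. Abca1, a cholesterol exporter of engulfing macrophages, was 3.65-fold higher in the IL-4 pair and 2.46-fold lower in the M1 pair, the latter -0.30 on the log2 scale with the trend subtracted. Slc2a1, which encodes the glucose transporter GLUT1, was the gene of this list that passed the edgeR test for M1, where it rose. Of the Tyrobp partners and ITAM genes, 1 of 21 was higher and 1 lower in the M0 pair, 2 of 20 and 4 in the M1 pair, and 1 of 21 and 0 in the IL-4 pair, beside the same shares of all genes. With the trend subtracted, 0 were higher and 3 lower in the M1 pair. In the edgeR fit for M1, 2 of these rose (Lcp2 and Clec5a) and 3 fell (Vav3, Pik3cd and Inpp5d). Treml4, a further gene of the TREM family, was 8.08-fold lower with G-1 in the M1 pair (335 and 37 counts) and 9.77-fold above M0 in M1.

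The genes whose levels were most like those of 4 members were searched among 10436 genes by Pearson's correlation of log2(CPM + 1) over the 6 macrophage libraries, as a description without a test. Mertk was most like Gtf3c2 (0.998), Washc4 (0.998) and Brwd3 (0.997), Axl like Sorl1 (0.979), Vars (0.962) and Men1 (0.961), Trem1 like Prpf3 (0.996), Bcdin3d (0.982) and Mipep (0.972), and Trem2 like Klc4 (0.995), Npepl1 (0.993) and Xrcc1 (0.991). The libraries share states and G-1 arms, and most of these genes spanned a far smaller range: Gtf3c2 ran from 1386 to 2832 counts while Mertk ran from 274 to 12328.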

How the data were processed

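Libraries were prepared from pooled RNA with the VAHTS Universal V6 kit and sequenced with paired ends, and the authors deposited whole-number read counts per gene symbol for each of the 8 libraries. Build mm10 and the tool DESeq2 (no version) appear in the submitters' processing notes. No aligner, counting tool or use of strand is named in any source used here. The members and the gene lists were chosen with earlier results of these data known.

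Total counts per library ran from 35027179 to 40671596, so that 3 counts, the floor used for a count of 0, equal 0.0738 to 0.0857 CPM. Of 22173 symbols, 21954 were matched to RefSeq genes of GRCm38.p6 and 21102 to a GENCODE M21 transcript, whose length and GC content were used for TPM and for the length trend. TMM factors came from edgeR 4.0.16 (R 4.3.3, limma 3.58.1), and folds from Python 3.11.15, scipy 1.17.1, pandas 2.3.3 and numpy 2.4.6. Genes whose higher count reached 20 were called from a fold of 2 upward. Pairs have no p-value, since each group is 1 library. No fold was given where both libraries had 3 counts or fewer. The length and GC trend was subtracted as running medians over 501 genes.

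State and G-1 were tested over 6 macrophage libraries with edgeR's quasi-likelihood test after filterByExpr, with Benjamini-Hochberg adjustment over 11921 genes. The standard errors are approximate, from the change and its F statistic. The alternatives were DESeq2 1.42.0 with the same model, its size factors, total counts, no minimum count or one of 100, 5 counts added before the fold, the interval's bound nearer to 1, the trend subtraction, and leaving out each pair. Named genes were all members, up to 3 genes per list and comparison with the largest fold past 2 and at least 100 counts, and the 3 most similar genes of 4 members. Havcr1, the marker genes and the list genes named for passing the edgeR test stand outside that rule and were chosen after their values were seen. Promoters came from RefSeq on GRCm38.p6, and figures were drawn with matplotlib 3.10.9. Enrichment was not tested. Results of some genes of the lists are not reported here.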

Additional observations from a re-analysis of the deposited data

Results flagged for a closer look

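Gas6 went in opposite directions with G-1: its log2 fold was 1.24 in the M1 pair, -1.25 in the M0 pair and -1.24 in the IL-4 pair. It is listed because the single pair of each state moved against another. The difference between the states was not tested, since each condition has 1 library, and the M1 levels (300 and 633 counts) were far below those of M0 and IL-4.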

How the results depend on the processing

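No paired analysis was possible because each group has 1 library, so that the replicate number 1 that all groups share pairs no samples and the additive model already takes state as a block. The counts of members past 2-fold in the 8 pairwise comparisons stayed within 1.5 times of their values under DESeq2 size factors, total counts, no minimum count or one of 100, 5 counts added before the fold, the interval's bound nearer to 1 and the subtraction of the length and GC trend, except that with no minimum count the TEC pair had 1 member in place of 0. Total counts in place of TMM shifted all log2 folds by -0.16 in the M0 pair, -0.20 in the M1 pair, 0.01 in the IL-4 and TEC pairs, -0.15 in M1 over M0, -0.21 in M1+G-1 over M0+G-1, 0.12 in IL-4 over M0 and 0.29 in IL-4+G-1 over M0+G-1, which turned the direction of Tyrobp in IL-4 over M0 and of Pros1 in IL-4+G-1 over M0+G-1. For G-1 over the macrophage states, DESeq2 called 2 members and 823 genes, and leaving out a pair gave 0 to 3 members, with 3 members and 978 genes without the M1 pair. For IL-4 against M0, DESeq2 called 4 members and 182 genes, and 1 member and 32 genes were called without the M1 pair. For M1 against M0 the count of genes was 1180, and 2556 in DESeq2. With 1 pooled library per group, counting intervals cannot stand in for the spread between cultures. Members under 20 counts are limited by depth: Tyro3 in the macrophages, Trem3 in M0, M0+G-1 and the TECs, and Trem1 in M0 and the TECs.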
